A study of Oryza sativa Japonica Group with 12 samples.

Results

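The genes described here are 9 rice heat shock genes, taken from the count table by locus ID. They are 5 class I small heat shock proteins (Os01g0136100, Os01g0136200, Os03g0266300, Os03g0266900 and Os03g0267000), the class II small heat shock protein Os01g0184100, the plastid small heat shock protein HSP26.7 (Os03g0245800), HSP101 (Os05g0519700) and an HSP90 (Os04g0107900). All 9 were present among the 38978 rows of the table. By the numbering of rice locus IDs, 3 lie on chromosome 1, 4 on chromosome 3, and 1 each on chromosomes 4 and 5. RNA abundance was measured by sequencing of leaf RNA from rice of the japonica cultivar Nipponbare, grown in the field and sampled at 10 A.M. by the labels. WT was the unmodified cultivar, and Line7 and Line8 were homozygous transgenic lines 7 and 8 carrying p35s-Ami-YGL1, each with 4 libraries. This construct expresses an artificial microRNA from the 35S promoter, which is active in most plant tissues, against YGL1, the gene for chlorophyll synthase. No group carried a control construct, so effects of silencing the target and of the transgene itself cannot be told apart. Each group of transgenic libraries is 1 line. The labels do not say whether replicates came from different plants, and the p-values cover the spread between libraries only, which may be technical. Leaf temperature at sampling, and the season and site of each library, are not given in the labels.

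Small heat shock proteins bind proteins that are losing their fold and keep them from clumping, without using ATP. Class I and class II members work in the cytosol and are encoded by separate branches of the family, whereas HSP26.7 is imported into the plastid. HSP101 is a ring-shaped ATPase that pulls proteins back out of aggregates and is needed for acquired heat tolerance in plants. HSP90 helps signalling proteins reach their active fold and holds heat shock transcription factors in check. In unstressed leaves most of these genes are nearly silent, and heat shock factors switch them on under heat and some other stresses that damage proteins.

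Library totals ran from 14746933 to 19822636 counts, and 20217 rows were abundant enough to test. Levels are given as CPM, the count of a row divided by its TMM-scaled library total and brought to the usual common total. The locus ID taken as that of the microRNA's target, Os05g0349700, which the files do not pair with a name, was at 44.2 to 69.1 CPM in WT, 23.8 to 33.4 CPM in Line8 and 27.4 to 34.4 CPM in Line7 replicates 1, 3 and 4. By edgeR with all libraries, its log2 fold change was -1.03 in Line8 (adjusted p = 0.0172) and -0.47 in Line7 (adjusted p = 0.291), where it was not called. In the library labelled Line7 replicate 2 it was at 68.1 CPM, a WT level. Without that library its log2 fold change in Line7 was -0.87. In a principal component analysis of log2(CPM + 1), that library scored -62.3 on component 1 (53.2% of variance), among WT at -69.9 to -52.6. The other 7 line libraries scored 22.7 to 61.9. On component 2 (21.2%), Line8 replicate 3 (85.8) and WT replicate 1 (47.9) stood apart from the others, at -39.5 to 4.13. Results for Line7 are therefore given with and without the library labelled replicate 2. That library was singled out by its expression in these same data, so lower p-values without it are no separate support. Leaving it out raised the rows called by edgeR in Line7 from 1409 to 5156. Of IDs recalled as markers, 6 of 6 for leaf (Rubisco small subunits and light-harvesting proteins) had counts, with summed levels of 9328 to 21525 CPM for WT, 17537 to 23495 CPM for Line7 and 7525 to 27545 CPM for Line8. By edgeR 2 of these 6 were higher in Line8 (log2 fold changes 1.51 and 1.29, adjusted p = 0.0378 and 0.0443), and 0 in Line7, where 0 had an unadjusted p below 0.05 and DESeq2 and limma-voom called 0. Of 4 IDs recalled for floral organs, 3 had counts, with a sum of at most 15.5 CPM in any library, and the 1 ID recalled for the shoot meristem had 0 counts. For root, 2 of 4 had counts and 2 were at 0 in every group, with sums of 17.6 to 24.0 CPM for WT, 9.17 to 20.2 CPM for Line7 and 4.48 to 16.0 CPM for Line8. The 1 root ID tested was lower in Line8 (log2 fold change -1.26, edgeR adjusted p = 0.0201), and its log2 fold change in Line7 was -0.67 (adjusted p = 0.233). The part of these leaf and root IDs in the results was not tested. No table used here pairs these marker IDs with names.

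The 9 genes fell into 2 sets by abundance. Os03g0266300, Os03g0266900, Os03g0267000 and HSP101 had at least 49 counts in every library of every group. HSP26.7 and the HSP90 had at most 5 counts in any WT library and passed the filter on low counts only through the lines. With only the WT and Line7 libraries they did not pass it. The remaining 3, Os01g0136100, Os01g0136200 and the class II gene, had at most 11 counts in any library and did not pass. In edgeR's quasi-likelihood test with Benjamini-Hochberg adjustment over all tested rows, 6 of the 6 genes tested were higher in Line8 than in WT, against 15.5% of all tested rows. In Line7, 4 of 6 were higher, against 5.92% of all tested rows, and 0 were lower in either line, against 11.8% lower in Line8 and 1.05% in Line7. Counting only the 4 genes that were abundant in WT, 4 of 4 were higher in Line8 and 3 of 4 in Line7. All 4 Line7 calls were lost when any of WT replicates 1, 3 and 4 or Line7 replicates 1 and 3 was left out. Those fits called only 7 to 18 of all tested rows, against 1409 with all libraries. Without WT replicate 2, 2 calls were left, where 490 rows were called in all. Without the library labelled Line7 replicate 2, 5 genes were called higher, against 14.9% of tested rows. In bulk leaf RNA, a change in the share of a cell type and a change in RNA per cell cannot be told apart.

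**Figure D1:**
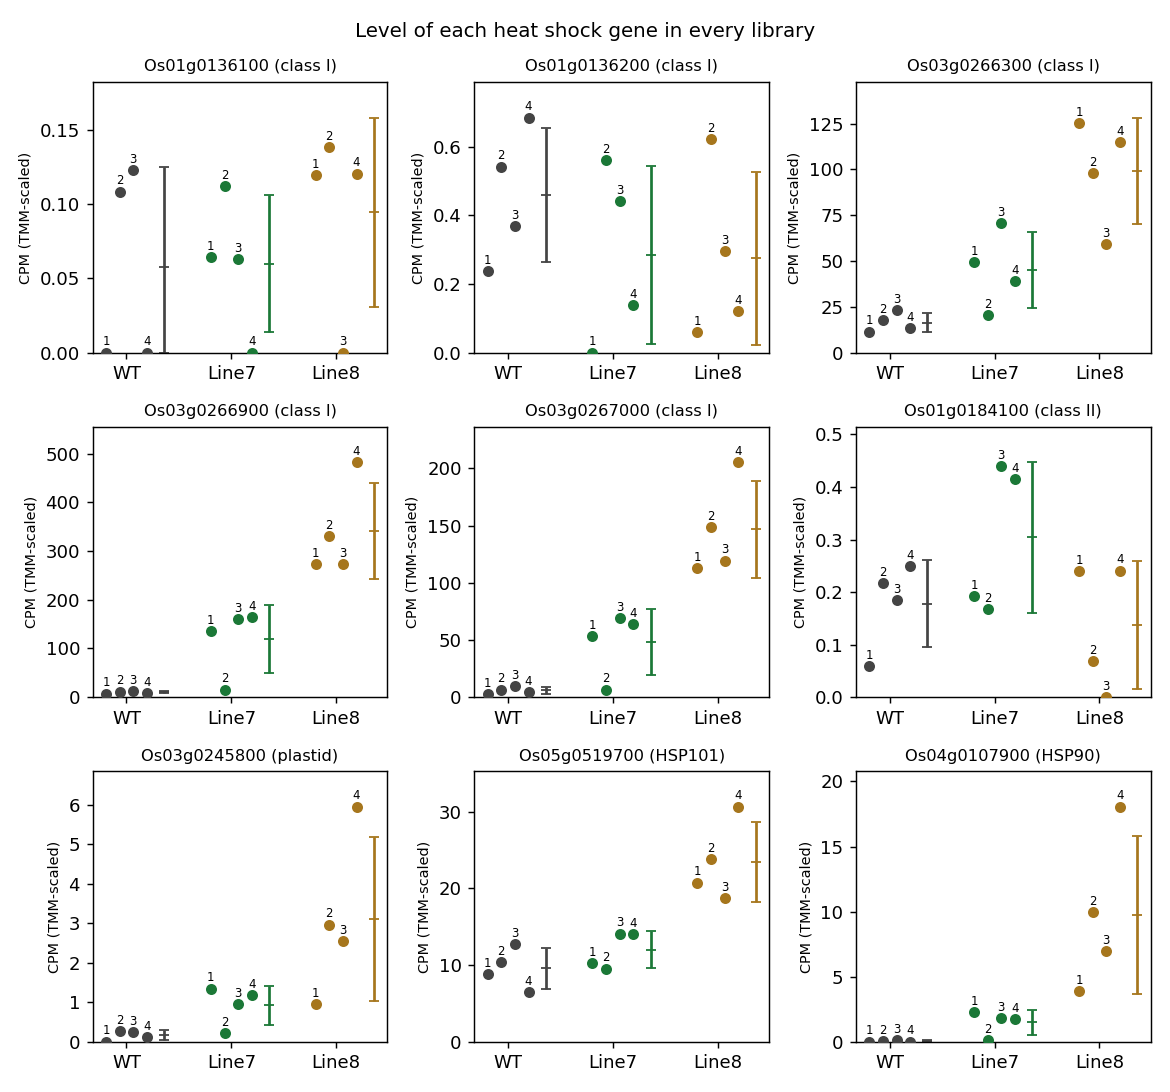
Level of each of the 9 heat shock genes in every library, in CPM after TMM scaling on a linear axis from 0 that differs between panels. Points are libraries, numbered by replicate, and bars give the mean ± SD of 4 libraries, drawn no lower than 0. The 4 Line8 libraries of Os03g0266900 sit at 274 to 483 CPM and the WT libraries at 7.34 to 12.3 CPM, while the library labelled Line7 replicate 2 sits at 15.5 CPM.

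Among the class I genes, which encode the most abundant small heat shock proteins of the heat-stressed plant cytosol, the ID with the smallest p was Os03g0266900. Its level was 7.34, 11.4, 12.3 and 8.90 CPM in WT replicates 1 to 4. In Line7 it was 136, 15.5, 161 and 165 CPM, and in Line8 it was 274, 332, 274 and 483 CPM. Every line library lay above every WT library, and the library labelled Line7 replicate 2 lay just above them, at 1.55 times the WT mean. Group means were 9.99 ± 2.29 CPM for WT, 119 ± 70.3 CPM for Line7 and 340 ± 98.7 CPM for Line8 (each SD, n = 4). The rise was 34.0-fold in Line8 (log2 fold change 5.09, SE 0.595, edgeR adjusted p = 0.00171) and 11.9-fold in Line7 (log2 fold change 3.58, SE 0.556, edgeR adjusted p = 0.0146). By p-value it ranked 12 of 20217 rows in Line8 and 17 in Line7. Rows with all 4 libraries above all 4 WT libraries made up 16.1% of tested rows in Line8 and 4.71% in Line7. Without the library labelled Line7 replicate 2, the Line7 mean was 154 ± 15.5 CPM (SD, n = 3) and the rise was 15.4-fold (edgeR adjusted p = 1.34e-06).

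Os03g0267000, the next row of the table, followed it. Its level was 2.92, 6.61, 9.77 and 4.61 CPM in WT replicates 1 to 4, and 113, 149, 120 and 206 CPM in Line8. Line7 replicates 1, 3 and 4 held 53.5, 69.2 and 63.6 CPM, and the library labelled replicate 2 was at 6.56 CPM, a WT level. The rise was 24.5-fold in Line8 (log2 fold change 4.62, SE 0.620, edgeR adjusted p = 0.00186) and 8.06-fold in Line7 (log2 fold change 3.01, SE 0.581, edgeR adjusted p = 0.0163). The Line7 rise was 10.4-fold when the library labelled replicate 2 was left out (edgeR adjusted p = 3.02e-05).

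Os03g0266300, the third class I gene of chromosome 3, had the smallest rise of the 3. Its WT libraries held 11.5, 17.7, 23.0 and 13.4 CPM, and its Line8 libraries 125, 97.8, 59.2 and 115 CPM. Line7 replicates 1, 3 and 4 held 49.5, 70.9 and 39.2 CPM, whereas the library labelled replicate 2 was at 20.7 CPM, a WT level. Line8 did not overlap with WT, and Line7 overlapped through that library. The rise was 6.05-fold in Line8 (log2 fold change 2.60, SE 0.364, edgeR adjusted p = 0.00187) and 2.75-fold in Line7 (log2 fold change 1.46, SE 0.352, edgeR adjusted p = 0.0306). With the library labelled Line7 replicate 2 left out, the Line7 rise was 3.24-fold (edgeR adjusted p = 0.00157).

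The 2 class I genes of chromosome 1 stayed at the edge of detection. Os01g0136100 had 0 to 2 counts in each of the 12 libraries, 4 in all over WT, 4 over Line7 and 6 over Line8. Os01g0136200 had 4, 10, 6 and 11 counts in WT replicates 1 to 4, 0, 10, 7 and 2 in Line7, and 1, 9, 5 and 2 in Line8. The groups overlapped in both genes. For Os01g0136200, the summed level in Line8 was 0.573 times that of WT (95% exact binomial interval 0.297 to 1.07, counting error only), and exact two-sided permutation on log2(CPM + 1) returned p = 0.286 for Line8 and p = 0.314 for Line7. For Os01g0136100 the summed ratio was 1.57 in Line8 with an interval of 0.372 to 7.55, so a change of the size seen in Os03g0266300 was not excluded by depth in that gene. The upper bound for Os01g0136200, 1.07, lay below the 3.65-fold lower limit (fold change less 2 SE) of Os03g0266300 in Line8. That bound leaves out the spread between libraries, so the comparison does not settle whether Os01g0136200 rose.

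Class I coding sequences are close copies of each other, and the way reads that match more than 1 copy were counted is not given in the sources used here. Reads of these 5 rows may therefore have been split or dropped, and values of single class I rows are uncertain to that extent. The sum over the 5 rows does not depend on how reads were split among them. It would be lowered by reads dropped, and changed by reads shared with any similar row outside the 5. It averaged 32.9 ± 10.4 CPM for WT, 213 ± 116 CPM for Line7 and 587 ± 153 CPM for Line8 (each SD, n = 4). The 4 Line8 libraries held 453 to 803 CPM, Line7 replicates 1, 3 and 4 held 239 to 301 CPM, and the library labelled Line7 replicate 2 held 43.4 CPM, inside the WT range of 22.0 to 45.6 CPM. The log2 ratio of the group means to WT was 2.69 for Line7 and 4.16 for Line8.

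**Figure D2:**
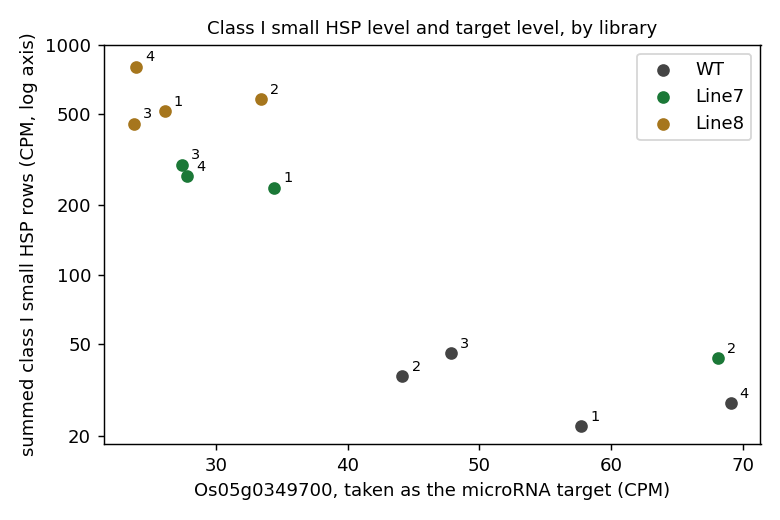
Summed level of the 5 class I rows (CPM, log axis) against the level of Os05g0349700, taken as the microRNA's target (CPM), in each of the 12 libraries, numbered by replicate. The 4 WT libraries and the library labelled Line7 replicate 2 have class I sums of 22.0 to 45.6 CPM at target levels of 44.2 to 69.1 CPM, and the other 7 line libraries have sums of 239 to 803 CPM at 23.8 to 34.4 CPM.

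Ratios between the class I rows of chromosome 3 were chosen after their values had been seen, and 6 tests were made, of which 0 passed after adjustment and 2 had an unadjusted exact permutation p below 0.05. The ratio of Os03g0266900 to Os03g0266300 counts was 0.641, 0.644, 0.536 and 0.662 in WT replicates 1 to 4. It was 2.18, 3.39, 4.62 and 4.21 in Line8, and 2.75, 2.27 and 4.20 in Line7 replicates 1, 3 and 4. The library labelled Line7 replicate 2 had a ratio of 0.748, near WT. All 4 libraries of each line lay above all 4 of WT, and by exact two-sided permutation p was 0.0286 for each line, the smallest p possible with groups of 4. After Benjamini-Hochberg adjustment over the 6 tests the value was 0.0858, which did not pass the threshold. The ratio of Os03g0266900 to its neighbour in the table, Os03g0267000, was 2.23 to 2.42 in Line8 and 2.32 to 2.59 in Line7, including the library labelled replicate 2. In WT it ran from 1.26 to 2.51, with overlap (exact permutation p = 0.143 for Line8 and p = 0.0857 for Line7, adjusted p = 0.205 and 0.171).

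**Figure D3:**
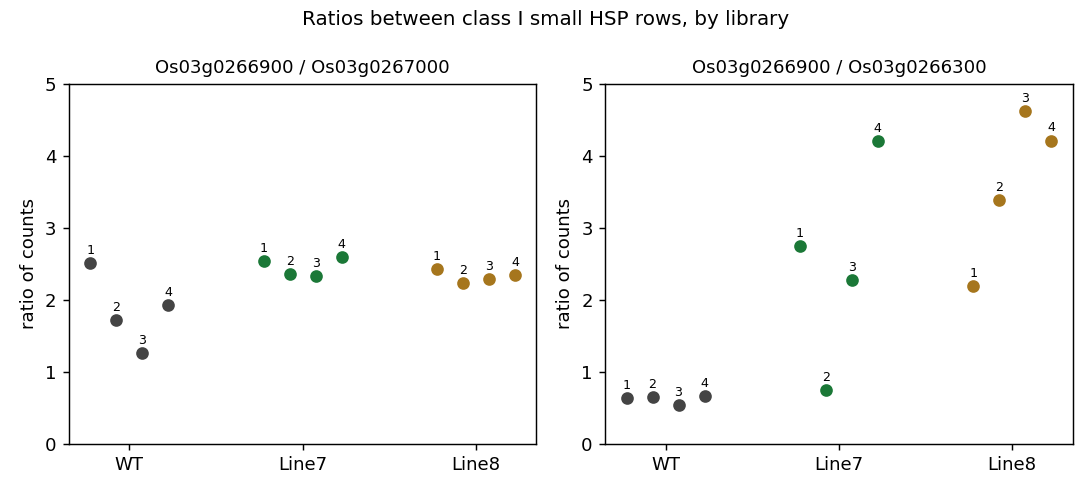
Ratio of counts between class I rows in each library, numbered by replicate, by group. The ratio of Os03g0266900 to Os03g0267000 (left) lies between 1.26 and 2.59 in all 12 libraries, and the ratio of Os03g0266900 to Os03g0266300 (right) lies at 0.536 to 0.662 in WT and at 2.18 to 4.62 in Line8.

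Of the 22 other rows from 10 before Os03g0266300 to 10 after Os03g0267000, 17 were tested, 1 was higher in Line7 and 0 were lower by edgeR, against 5.92% higher and 1.05% lower over all tested rows. In Line8, 1 was higher and 2 were lower, against 15.5% higher and 11.8% lower. Log2 fold changes of the tested neighbours ran from -0.6283 to 2.755 in Line7 and from -1.001 to 3.332 in Line8. The largest in each line lay above that of Os03g0266300, which was 1.458 in Line7 and 2.597 in Line8. The 2 rows between Os03g0266300 and Os03g0266900 had log2 fold changes of -0.25 and 0.02 in Line7, and of -0.21 and -0.17 in Line8. These neighbours carry no name in the tables used here.

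The class II gene Os01g0184100, of the second cytosolic branch, was not detectable above a few counts in any group. It had 1, 4, 3 and 4 counts in WT, 3, 3, 7 and 6 in Line7, and 4, 1, 0 and 4 in Line8. The groups overlapped, and the summed level in Line8 was 0.783 times that of WT (95% exact binomial interval 0.292 to 2.03). In Line7 the ratio was 1.68 (interval 0.773 to 3.79). By exact two-sided permutation, p was 0.686 for Line8 and 0.257 for Line7. Both upper bounds lay below the summed ratio of every tested small heat shock gene in the same line except that of Os03g0266300 in Line7, which was 2.71. These intervals cover counting error only and leave out the spread between libraries, so they do not settle whether the class II gene rose.

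HSP26.7 (Os03g0245800), the small heat shock protein of the plastid, went from a few counts in WT to at least 16 in each Line8 library. WT replicates 1 to 4 held 0, 5, 4 and 2 counts, and Line8 held 16, 43, 43 and 99. Line7 replicates 1, 3 and 4 held 21, 15 and 17 counts, and the library labelled replicate 2 held 4. Group means were 0.160 ± 0.125 CPM for WT, 0.922 ± 0.494 CPM for Line7 and 3.11 ± 2.09 CPM for Line8 (each SD, n = 4). It rose in Line8 (18.4-fold, log2 fold change 4.20, SE 0.770, edgeR adjusted p = 0.00316), where no library overlapped with WT. This gene too passed the filter only through the lines, and with no filter the edgeR adjusted p in Line8 was 0.00207. In Line7 the log2 fold change was 2.45 (SE 0.788, edgeR unadjusted p = 0.00832, adjusted p = 0.0741), which did not pass the threshold. It was 2.78 with the library labelled Line7 replicate 2 left out (edgeR adjusted p = 0.016).

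HSP101 (Os05g0519700), the disaggregase, had at least 103 counts in every library and rose in Line8. Its WT libraries held 8.77, 10.4, 12.8 and 6.41 CPM, and its Line8 libraries 20.8, 23.8, 18.7 and 30.7 CPM, with no overlap. The rise in Line8 was 2.45-fold (log2 fold change 1.29, SE 0.239, edgeR adjusted p = 0.00323). Line7 held 10.3, 9.53, 14.1 and 14.0 CPM, of which replicates 3 and 4 lay just above WT. The Line7 log2 fold change was 0.32 (SE 0.237, edgeR unadjusted p = 0.198, adjusted p = 0.406), and 0.42 without the library labelled replicate 2 (adjusted p = 0.241). Fold changes from 0.900 to 1.74 lie within 2 SE of the Line7 estimate with all libraries, so a rise of the Line8 size lies outside that range.

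The HSP90 gene Os04g0107900 had 0, 1, 2 and 0 counts in WT replicates 1 to 4. It had 65, 144, 118 and 300 counts in Line8, and 35, 29 and 25 in Line7 replicates 1, 3 and 4. The library labelled Line7 replicate 2 had 2 counts, as many as WT replicate 3. The level was 9.72 ± 6.09 CPM (SD, n = 4) in Line8 and 1.48 ± 0.937 CPM in Line7. With 3 counts over WT, the summed level was 218 times that of WT in Line8 (95% exact binomial interval 74.4 to 1061) and 32.1 times in Line7 (interval 10.7 to 159), intervals that cover counting error only. The edgeR adjusted p was 0.00174 in Line8 and 0.0207 in Line7, for a gene that passed the filter only through the lines, and with no filter on low counts it was 0.00112 and 0.0201. Without the library labelled Line7 replicate 2 the Line7 adjusted p was 0.000406. The fitted fold less and plus 2 SE ran from 49.2 to 711 in Line8 and from 6.95 to 115.5 in Line7, and without WT replicate 3 the log2 fold change went from 7.55 to 8.52 in Line8 and from 4.82 to 5.74 in Line7.

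**Figure D4:**
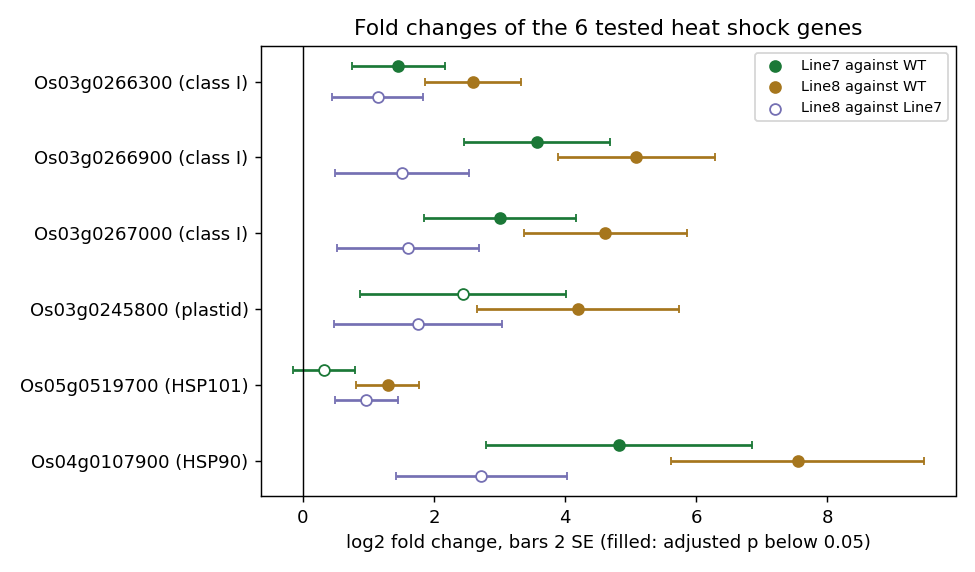
Log2 fold changes of the 6 tested heat shock genes (edgeR, all 12 libraries), with bars of 2 SE, for each line against WT and for Line8 against Line7. Filled points have an adjusted p below 0.05. Line8 against WT is filled for all 6 genes, Line7 against WT for 4, and Line8 against Line7 for 0. Values for the HSP90 rest on 3 WT counts.

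All 6 tested genes had higher fitted levels in Line8 than in Line7, by 1.96-fold (HSP101) to 6.60-fold (the HSP90). HSP26.7 and the HSP90 did not pass the filter on low counts with only the WT and Line7 libraries. In edgeR they entered this comparison through Line8, where they were highest, so their differences here were favoured by the filter. The 4 genes abundant in WT differed by 1.96-fold to 3.04-fold (Os03g0267000). By edgeR 0 of the 6 differences passed the adjusted threshold (adjusted p from 0.200 to 0.246), while 6 had an unadjusted p below 0.05. Over all rows edgeR called 0.0247% in this comparison. DESeq2, which was run without that filter, called 2 of the 6, against 2.03% of all rows it tested. These were the HSP90 (DESeq2 adjusted p = 0.00798) and HSP101 (adjusted p = 0.016). limma-voom called 0 of the 6 and 0.00989% of all rows. In 4 of the 6 genes (Os03g0266900, Os03g0267000, HSP101 and the HSP90) every Line8 library lay above every Line7 library, which held for 4.80% of tested rows. For HSP101 the log2 difference was 0.97 (SE 0.237), with 18.7 to 30.7 CPM in Line8 against 9.53 to 14.1 CPM in Line7. Without the library labelled Line7 replicate 2 the difference ranged from 1.84-fold (HSP101) to 5.02-fold (the HSP90), and 0 of 6 passed by edgeR (adjusted p from 0.197 to 0.417), where edgeR called 0.0342% of all rows lower and 0 rows higher. In that fit the unadjusted p of Os03g0266900 was 0.000364 for a 2.21-fold difference.

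For the mean of both lines against WT, 6 of 6 tested genes were higher by edgeR, against 14.2% of tested rows. Of the 4 that were abundant in WT, 4 were higher, while HSP26.7 and the HSP90 entered the test only through the lines. In 1 of the 6, Os03g0266900, all 8 line libraries lay above every WT library. Over all tested rows this can hold for no more than the 4.71% that had it in Line7. The log2 fold change of Os03g0266900 was 4.33 (SE 0.552, edgeR adjusted p = 0.00301). HSP101 had the smallest change (log2 fold change 0.81, SE 0.212, edgeR adjusted p = 0.0174, and 0.0564 without WT replicate 4). Since both lines were set against the same 4 WT libraries, these values are not independent of those of each line.

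The Line8 calls held for all 6 genes with each of the 12 libraries left out in turn, with adjusted p-values up to 0.0138 (edgeR). Of these genes, HSP26.7 and the HSP90 passed the filter on low counts only through the lines. Rows called in Line8 over these fits numbered 3443 to 6494 in all. The Line7 calls depended on single libraries. Of the 6 tested genes, 0 passed without WT replicate 1, 3 or 4 or without Line7 replicate 1 or 3, while 5 had an unadjusted p below 0.05 in each of these fits. Without WT replicate 2 there were 2 calls, without Line7 replicate 4 there were 3, and without the library labelled Line7 replicate 2 there were 5. Over the fits with 1 library left out, the Line7 change of Os03g0266900 lay between 3.40 and 3.94 on the log2 scale, with adjusted p-values of 1.34e-06 to 0.0675. Adjusted p-values cover all tested rows, and the number of rows called in Line7 ranged from 7 to 5156 over the same fits. limma-voom called 0 of the 6 in Line7 (5 with an unadjusted p below 0.05, adjusted p from 0.0751 for Os03g0266900), where it called 0.109% of all rows. DESeq2 called 5, against 13.9% of all rows it tested.

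**Figure D5:**
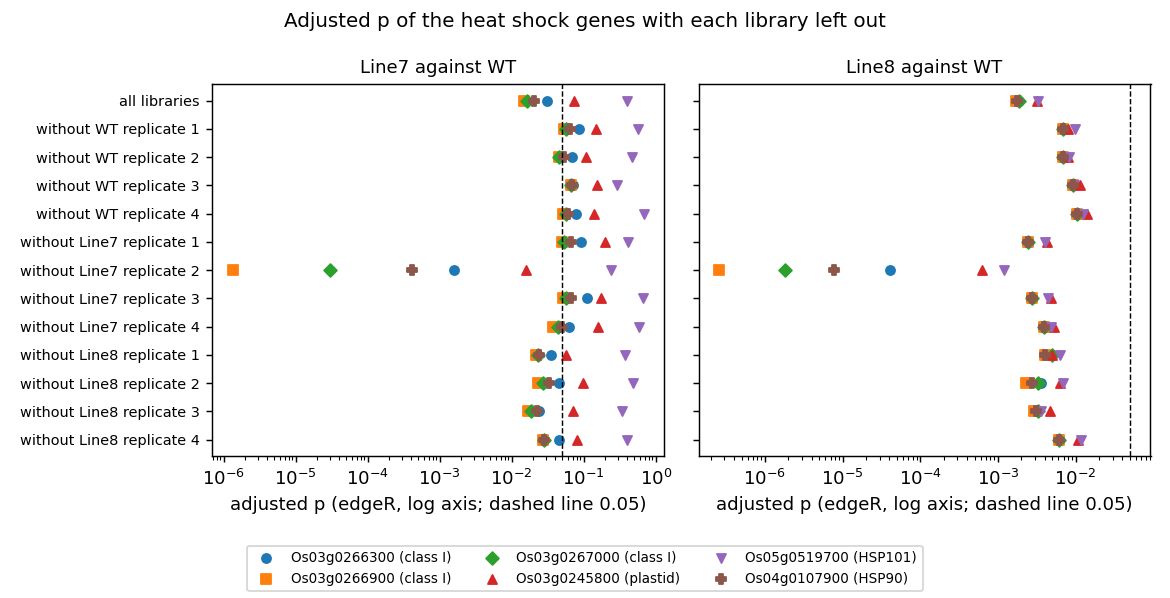
Adjusted p-values (edgeR, log axis) of the 6 tested heat shock genes with all libraries and with each library left out, for Line7 against WT (left) and Line8 against WT (right). The dashed line marks 0.05. All Line8 points lie at or below 0.0138, and in Line7 the points without the library labelled replicate 2 lie farthest left.

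Within Line8, replicate 4 had the highest level in 5 of the 6 genes. The exception was Os03g0266300, highest in replicate 1. The lowest Line8 library was replicate 1 for Os03g0267000, HSP26.7 and the HSP90, and replicate 3 for Os03g0266300 and HSP101.

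Likeness to the 6 tested genes was measured as the Pearson correlation of log2(CPM + 1) with the mean of their standardised values over the 12 libraries. This is a description, since the libraries lie in 2 clusters, WT with the library labelled Line7 replicate 2 against the other 7, and all rows share the scaling of each library. The 3 most like rows were Os01g0706100 (r = 0.985), Os03g0351100 (r = 0.980) and Os06g0136600 (r = 0.978), none of which is named in the tables used here. Os06g0136600 averaged 119.9 CPM over WT, 343 CPM over Line7 and 789 CPM over Line8, with 105 CPM in the library labelled Line7 replicate 2. Os01g0706100 averaged 0.725, 1.48 and 3.10 CPM over WT, Line7 and Line8, and Os03g0351100 averaged 218, 272 and 376 CPM. No test is given for these rows, since they were chosen for following the heat shock genes over the same libraries.

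Other genes of the heat shock response were followed through lists of locus IDs recalled from general knowledge of rice, since no table used here pairs these IDs with names. The members of each list are therefore counted and not named, and support nothing beyond the count. Of 61 such IDs in 5 lists, 45 were tested. By edgeR 22 were higher and 0 lower in Line8 (48.9%, against 15.5% higher over all tested rows), and 10 were higher and 0 lower in Line7 (22.2%, against 5.92%). Of 12 further small heat shock IDs 5 were tested, and 3 were higher in each line, with a median log2 fold change of 1.61 in Line7 and 1.76 in Line8. The other two had log2 fold changes of -0.67 and 0.01 in Line7 and of -0.49 and -0.51 in Line8, and did not pass. The summed level of all 12 further small heat shock IDs was 193 to 294 CPM in WT and 703 to 2301 CPM in Line8. In this sum the library labelled Line7 replicate 2 was the lowest of Line7.

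Of 10 further HSP90 and Clp ATPase IDs 9 were tested. In Line8 7 were higher (median log2 fold change 1.90) and in Line7 4 were (median 0.91). Of 8 HSP70 IDs, which encode the ATP-driven chaperones that work with HSP101, 7 were tested, with 4 higher in Line8 (median 0.73) and 0 in Line7 (median 0.51), where 5 had an unadjusted p below 0.05 by edgeR and DESeq2 and limma-voom also called 0. Without the library labelled Line7 replicate 2, 4 HSP70 IDs were higher in Line7. Of 6 co-chaperone IDs 5 were higher in Line8 (median 1.03) and 2 in Line7 (median 0.53). Of 25 heat shock factor IDs 18 were tested, with 3 higher in Line8 (median 0.14) and 1 in Line7 (median -0.10), shares near the 15.5% and 5.92% of all tested rows. The median over all tested rows was -0.07 in Line8 and -0.01 in Line7. For 4 IDs of the endoplasmic reticulum folding machinery, a set of chaperones outside the cytosolic heat shock response, edgeR, DESeq2 and limma-voom called 0 of 4 in either line. By edgeR 1 of the 4 had an unadjusted p below 0.05 in each line, and the medians were 0.30 in Line8 and 0.31 in Line7. Without the library labelled Line7 replicate 2, edgeR called 1 of them higher in Line7. With the library labelled Line7 replicate 2 left out, the Line7 counts were 3, 7, 4, 3 and 2 higher for small heat shock, HSP90 and Clp, HSP70, co-chaperone and heat shock factor IDs, and 1 heat shock factor ID was lower, where 14.9% of all rows were higher and 10.2% lower. The heat shock factor counts in that fit, 2 higher and 1 lower of 18, did not exceed those shares.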

How the data were processed

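The table the authors deposited holds raw counts for 38978 rows and 12 libraries. Each column was matched to a sample by its description. RNA was extracted with Trizol, per the labels' protocols. For the aligner, counter, genome build, strand setting and treatment of reads with several matches, nothing is given in the sources used here. Since no strand setting is known, counts of a gene may include reads from an overlapping or antisense gene.

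Rows were kept by filterByExpr of edgeR 4.0.16 (minimum count 10, R 4.3.3), which left 20217. Library totals were scaled by TMM, and a robust quasi-likelihood model with group as factor was fitted to all 12 libraries. P-values were adjusted by Benjamini-Hochberg over all tested rows, with a threshold of 0.05. Each SE is the absolute log2 fold change divided by the root of F. Permutation tests used log2(CPM + 1). Intervals of summed counts are exact binomial (95%) on TMM-scaled totals and cover counting error only. The model was also run on counts simulated from its own fitted means and spreads, with changes set in Line8 only. That run cannot show how changes in Line7 are recovered, and no result here rests on it.

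Over 66 pairs of libraries the chi-square statistic per degree of freedom was 13.6 to 228, so all 12 were counted. Alternatives were other size factors and filters, DESeq2 1.42.0, limma-voom (limma 3.58.1), fits with only the libraries compared, a replicate block, and leaving out each library. The 9 genes, the lists and the rule for named genes (all 9 genes, list counts, and the 3 most correlated rows) were chosen with earlier results of these data known. Names of the 9 genes come from that choice. No table used here names nuclear locus IDs, so list IDs are not named, and no sequence is shown.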

Additional observations from a re-analysis of the deposited data

Results flagged for a closer look

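Among 27 sets of 4 libraries (9 genes in 3 groups), 1 held a library that stood apart from the other 3 by Dixon's criterion, about as many as chance gives (1 in 20 groups). Os01g0136100 was at 0 CPM in Line8 replicate 3 and at 0.12 to 0.138 CPM in the other Line8 libraries, a difference of 0 against 2 counts.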

How the results depend on the processing

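The number of the 9 genes called in Line8 was 6 under each alternative run, as was the number for the mean of both lines, except for 5 without WT replicate 4. In Line7 it was 4, and it fell to 0 in limma-voom (5 with an unadjusted p below 0.05), to 2 with only the libraries compared and to 2 with the replicate block. These fits called 22, 587 and 475 rows in all, against 1409. With only the libraries compared, 4 of the 9 genes passed the filter, and HSP26.7 and the HSP90 were not tested in Line7. With 1 library left out it ranged from 0 to 5. For Line8 against Line7 it was 0 by edgeR in all fits and 2 by DESeq2. No direction reversed in any alternative. The labels do not say whether the replicate numbers pair the samples. Over 12 pairs of libraries with the same number, deviations from the group means correlated at -0.427 to 0.382, and 5 pairs were above 0.1. These correlations cannot decide whether a block was shared. Under the block, Os03g0266300 (adjusted p = 0.0684) and the HSP90 (0.051) no longer passed in Line7, and no other call of a heat shock gene changed. With only the libraries compared, Os03g0266300 had 0.0534 in Line7. Adjusted p in limma-voom was 0.0751 to 0.114 for the 4 Line7 calls. DESeq2 called HSP26.7 in Line7 (adjusted p = 0.0151). The causes were not tested. Depth limits Os01g0136100, Os01g0136200 and the class II gene, where 3 counts, the limit that a count of 0 allows, amount to 0.163 to 0.207 CPM per library.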
